A study of Mus musculus with 2 samples.

Results

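The miR-23, miR-27 and miR-24 hairpins lie in paralogous clusters on mouse chromosomes 13 and 8, and their counts were read in the newborn midbrain. The members are Mir23b, Mir27b and Mir24-1 on chromosome 13 and Mir23a, Mir27a and Mir24-2 on chromosome 8, taken by symbol and position from a table of 1973 genes. Of these 6 genes, 5 had a row of counts and all 5 reached at least 10 counts in each library, as did 359 of the 1973 genes. Mir24-1 was counted under no row of its own and has no value here. The samples are a single group of 2 libraries, pup 1 and pup 3, each from the midbrain of a B6NCrl mouse on postnatal day 0 with no treatment or mutation. The comparison is therefore between the clusters within each pup. The labels call the pups biological replicates, give both the same donor identifier and leave sex unrecorded.

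MicroRNAs are cut from hairpins in longer transcripts, and the arm that enters an Argonaute protein pairs with messenger RNAs mainly through its seed, bases 2 to 8. Hairpins of a cluster can be cut from the same transcript, yet the mature products also depend on later processing and on turnover. The miR-23, miR-27 and miR-24 families are known for their roles in blood vessel growth, in blood cell differentiation and, for miR-27, in restraining fat cell formation. In the brain, miR-23 has been described in astrocytes.

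The chromosome 13 hairpins spanned 792 bases of the plus strand on GRCm38 (mm10) in GENCODE M21. Mir23b (ENSMUSG00000065599.1 in the tables) ran from 63300484 to 63300557, in an intron of 2010111I01Rik, the aminopeptidase O gene now named Aopep. Mir27b (ENSMUSG00000065475.1) ran from 63300712 to 63300784, in the same host gene, and overlapped an exon of 1 of its transcripts. Mir24-1 (ENSMUSG00000105904.1 in GENCODE M21) ran from 63301208 to 63301275 and overlapped exons of 4 host transcripts. All 3 also lay opposite an intron of Fancc, a DNA repair gene on the minus strand.

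The chromosome 8 hairpins spanned 404 bases, again of the plus strand. Mir23a (ENSMUSG00000065611.1) ran from 84208518 to 84208592 and Mir27a (ENSMUSG00000065444.1) from 84208672 to 84208758, with no overlapping gene in the annotation. Mir24-2 (ENSMUSG00000065541.1) ran from 84208815 to 84208921 and shared 2 bases with the noncoding gene Gm26532. The order miR-23, miR-27, miR-24 was the same in both clusters, but the gaps were wider on chromosome 13, at 154 and 423 bases, than on chromosome 8, at 79 and 56 bases. Each miR-24 hairpin has a minus-strand hairpin annotated across all or most of it, Mir3074-1 on chromosome 13 and Mir3074-2 on chromosome 8.

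**Figure D1:**
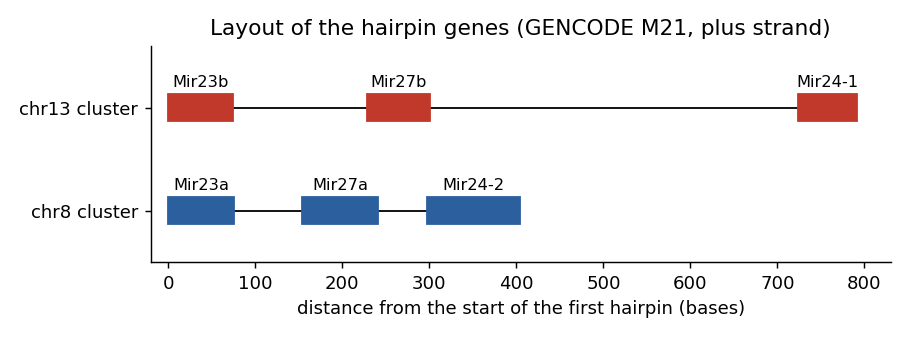
Hairpin genes of the chr13 cluster (top) and the chr8 cluster (bottom), drawn to scale as boxes by distance in bases from the start of the first hairpin. The order is the same, and the clusters span 792 and 404 bases.

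The mature sequences decide which reads can be told apart between the clusters, so those of the 3p arms are shown first, 5′ to 3′, with the seed in capitals. All 6 members matched a hairpin in RefSeq (GRCm38.p6), which gave 10 distinct mature sequences for them. The arm miR-23b-3p is named only.
miR-27b-3p (chromosome 13, 63300760 to 63300780): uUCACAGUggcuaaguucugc
miR-23a-3p (chromosome 8, 84208563 to 84208583): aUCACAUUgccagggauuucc
miR-27a-3p (chromosome 8, 84208727 to 84208747): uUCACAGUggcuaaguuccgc
miR-24-3p (chromosome 13, 63301251 to 63301272, and chromosome 8, 84208875 to 84208896): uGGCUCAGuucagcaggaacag

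The miR-27 arms had the same seed and matched over their opening 18 bases. They differed by C19U, with the miR-27a-3p base given before the position, counted from the 5′ end, and the miR-27b-3p base after it. An arm of 18 bases would therefore be the same from either miR-27 hairpin, and 19 bases was the shortest 5′ stretch held by only 1 hairpin of the 1005 in the RefSeq table. The same lengths held for miR-23a-3p, whose opening 18 bases were held by 2 hairpins, Mir23a and Mir23b. The sequence of miR-24-3p was the same at both loci at full length, as it was for 3.81% of the 1679 mature names, which were held by more than 1 hairpin.

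The 5p arms, shown because they are what separates the miR-24 loci, differed more between the clusters. The seeds are in capitals again.
miR-23b-5p (chromosome 13): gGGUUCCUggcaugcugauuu
miR-23a-5p (chromosome 8): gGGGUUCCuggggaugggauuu
miR-27b-5p (chromosome 13): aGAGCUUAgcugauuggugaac
miR-27a-5p (chromosome 8): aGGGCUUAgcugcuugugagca
miR-24-1-5p (chromosome 13): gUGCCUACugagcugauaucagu
miR-24-2-5p (chromosome 8): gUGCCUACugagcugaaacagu

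The 5p seeds were shared between the clusters for miR-24 and differed between them for miR-23 and miR-27. The 5p arms of miR-24 matched over their opening 16 bases and could be told apart from base 17 on. Those of miR-23 and miR-27 matched over 3 and 2 bases, and 15 bases, the shortest stretch tried, were held by 1 hairpin each.

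Whole hairpins of the miR-27 and miR-24 pairs show how far the shared sequence reaches beyond the mature arm, with the longest exact run common to each pair in capitals.
Mir27b (chromosome 13): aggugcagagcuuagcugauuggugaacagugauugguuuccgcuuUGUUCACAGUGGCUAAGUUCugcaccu
Mir27a (chromosome 8): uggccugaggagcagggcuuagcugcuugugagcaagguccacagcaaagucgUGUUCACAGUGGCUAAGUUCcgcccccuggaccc
Mir24-1 (chromosome 13): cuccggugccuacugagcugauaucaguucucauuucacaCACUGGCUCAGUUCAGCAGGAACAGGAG
Mir24-2 (chromosome 8): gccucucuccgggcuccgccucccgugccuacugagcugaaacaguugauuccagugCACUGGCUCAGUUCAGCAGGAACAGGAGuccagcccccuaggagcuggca

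The run was 20 bases long for the miR-27 pair and for the miR-23 pair, and 28 bases long for the miR-24 pair. Each of the 6 members shared a run of at least 20 bases with its paralog and with no other hairpin of the RefSeq table. Such a run with another hairpin was found in 12.8% of the 869 hairpins that had both a RefSeq entry and a row of counts. A read with more than 1 place in the genome enters no gene's count. The members' counts thus leave out every read that suits both clusters, by an amount that was not measured. For miR-24 this takes in the whole 3p arm: the counts of Mir24-2 do not measure miR-24-3p.

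The libraries held 2337113 own-strand counts for pup 1 and 3195277 for pup 3. A level is printed in CPM, the count scaled to a total of 1000000 own-strand counts over genes, and 3 counts, the limit that a count of 0 allows, equal 1.28 CPM in pup 1 and 0.939 CPM in pup 3. Intervals are exact (Clopper-Pearson) at 95% and cover counting error only, since no molecular identifiers were used. Reads mapping to several places made up 38.7% of all reads in pup 1 and 39.8% in pup 3. Neuronal microRNA markers summed to between 33346 and 38891 CPM and the endothelial marker Mir126a to between 30095 and 36188 CPM. Of 4 striated muscle markers with a row, 3 were at 0 in both pups, namely Mir1a-1, Mir133a-1 and Mir133a-2, and Mir206 had 46 counts in pup 1 and 63 in pup 3. The main arms of miR-1a and miR-133a are each the same from both of their loci, so these zeros do not show that the arms were absent. Cell types were not separated, so more cells and more RNA per cell cannot be told apart.

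The chromosome 13 copies were counted more often than the chromosome 8 copies in both pups, and by a much wider margin for miR-27 than for miR-23. The members together held 1.86% of own-strand counts in pup 1 and 1.82% in pup 3. Of the members' counts, 64.9% ± 0.720 came from chromosome 13 (SD, n = 2 pups), although that cluster was counted through 2 hairpins and the chromosome 8 cluster through 3. The miR-23 hairpins held 93.7% ± 0.490 of the members' counts, ahead of 5.74% ± 0.488 for miR-27 and 0.536% ± 0.00235 for Mir24-2. Reads of miR-24-3p enter none of these counts and Mir24-1 has no row, so the share of Mir24-2 does not measure miR-24. The SD for Mir24-2 is between pups only and leaves out the counting error of 232 and 312 counts.

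Mir23b had 26324 counts in pup 1 and 34210 in pup 3, or 11264 and 10706 CPM. This put it at rank 20 of all genes, with a mean of 10985 ± 394 CPM (SD, n = 2). Mir23a had 14512 counts in pup 1 and 19966 in pup 3, or 6209 and 6249 CPM. At rank 35 its mean was 6229 ± 27.7 CPM, and every value of Mir23b lay above every value of Mir23a. Counting intervals of Mir23a, 6109 to 6311 CPM in pup 1 and 6162 to 6336 CPM in pup 3, were wider than its SD.

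Within a pup, Mir23b had 1.81 times the counts of Mir23a in pup 1 (95% interval 1.78 to 1.85) and 1.71 times in pup 3 (1.68 to 1.74). The mean log2 ratio was 0.82 ± 0.058 (SD, n = 2), well beyond the spread between the pups. Put as a share of the pair, Mir23b made up 64.5% of the miR-23 counts in pup 1 and 63.1% in pup 3.

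Mir27b had 2066 counts in pup 1 and 3143 in pup 3, or 884 and 984 CPM. Its mean of 934 ± 70.5 CPM gave it rank 106, an order of magnitude under its cluster neighbour Mir23b. Mir27a had 275 counts in pup 1 and 386 in pup 3, or 118 and 121 CPM. Its mean was 119 ± 2.22 CPM at rank 213, so the miR-27 copies did not overlap either. Counting intervals of Mir27a, 104 to 132 CPM in pup 1 and 109 to 133 CPM in pup 3, were wider than its SD.

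Mir27b had 7.51 times the counts of Mir27a in pup 1 (6.62 to 8.55) and 8.14 times in pup 3 (7.32 to 9.07). The mean log2 ratio was 2.97 ± 0.082 (SD, n = 2). Mir27b thus held 88.3% of the miR-27 counts in pup 1 and 89.1% in pup 3. Division by hairpin length, tried after seeing the data, left the chromosome 13 copy ahead, at log2 ratios of 0.84 for miR-23 and 3.22 for miR-27. Both pups showed the chromosome 13 copy ahead for miR-23 and for miR-27, and no p is given, because a two-sided exact sign permutation over 2 pups cannot go below 0.5.

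**Figure D2:**
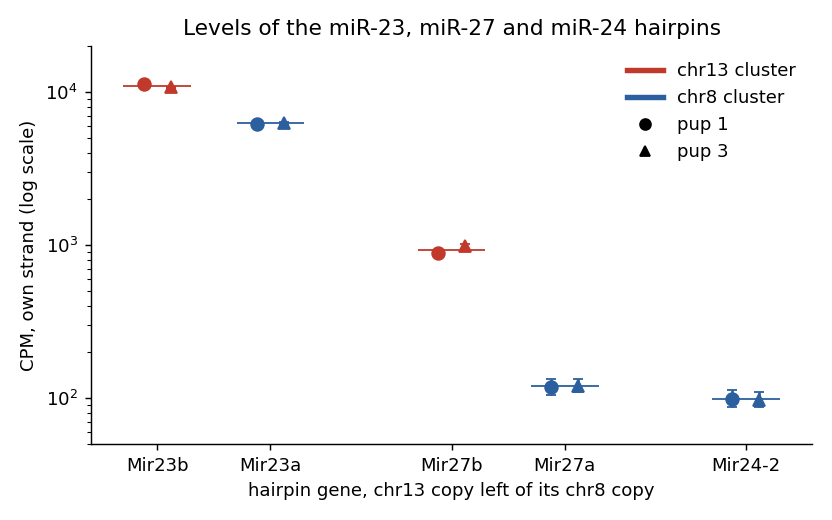
Own-strand CPM (log scale) of the 5 members with counts in pup 1 (circles) and pup 3 (triangles), chr13 cluster in red and chr8 cluster in blue. Horizontal lines are means, and bars are exact 95% counting intervals, which are smaller than most symbols. Mir23b and Mir27b lie above Mir23a and Mir27a in both pups.

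Mir24-2 had 232 counts in pup 1 and 312 in pup 3, or 99.3 and 97.6 CPM. Its mean of 98.5 ± 1.15 CPM was the lowest of the members, at rank 224. The counting intervals, 86.9 to 113 CPM in pup 1 and 87.1 to 109 CPM in pup 3, were wider than that SD. Mir27a, the next member up, had 1.19 times the counts of Mir24-2 in pup 1, with an interval of 0.992 to 1.42 that takes in equal counts, and 1.24 times in pup 3 (1.06 to 1.44). The values of these hairpins did not overlap over the pups, but in pup 1 they did not differ beyond counting error. The remaining steps in the order, Mir23b, Mir23a, Mir27b and Mir27a, were all wider than both the spread between pups and the counting intervals.

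The locus of Mir24-1 was covered by the row of Mir3074-1, the hairpin annotated across it on the minus strand. That row had 188 own-strand counts in pup 1 and 286 in pup 3, and 33 and 40 counts on the opposite strand. Mir3074-1 is on the minus strand in GENCODE M21. Its strand in the M4 annotation behind the counts was not used here, so which of these counts came from Mir24-1 was not established. Counts for both strands together were 221 in pup 1 and 326 in pup 3, against own-strand counts of 232 and 312 for Mir24-2. The former pool both strands, while Mir24-1 lies on a single strand, so they give no ratio between the miR-24 loci. Mir24-2 itself had 0 counts on its opposite strand in both pups, as had the other 4 members with a row.

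Summed, the chromosome 13 cluster reached 12148 CPM in pup 1 and 11690 in pup 3, against 6426 and 6467 CPM for the chromosome 8 cluster. Its counts were 1.89 times those of the chromosome 8 cluster in pup 1 (1.85 to 1.93) and 1.81 times in pup 3 (1.78 to 1.84). The mean log2 ratio of 0.89 ± 0.046 (SD, n = 2) followed the miR-23 hairpins because they carry most of the counts. With the same weight for the miR-23 and miR-27 pairs, the mean log2 ratio was 1.89.

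The make-up of the clusters differed, with Mir24-1 missing from the chromosome 13 total and reads of miR-24-3p in neither total. On chromosome 13, Mir23b held 92.7% of the cluster's counts in pup 1 and 91.6% in pup 3, and Mir27b held 7.28% and 8.41%. On chromosome 8, Mir23a held 96.6% in both pups, Mir27a 1.83% in pup 1 and 1.87% in pup 3, and Mir24-2 1.54% and 1.51%.

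Counts of miR-23 exceeded those of miR-27 by 12.7 times on chromosome 13 in pup 1 (12.2 to 13.3) and 10.9 times in pup 3 (10.5 to 11.3). On chromosome 8 the excess was 52.8 times in pup 1 (46.8 to 59.7) and 51.7 times in pup 3 (46.8 to 57.4). The miR-23 to miR-27 ratio was thus lower on chromosome 13 in both pups, with a mean log2 difference between the clusters of -2.15 ± 0.14 (SD, n = 2). This equals a ratio 4.14 times as high on chromosome 8 as on chromosome 13 in pup 1 (3.65 to 4.70, normal approximation to the counting error) and 4.75 times in pup 3 (4.27 to 5.29). The efficiency with which each arm was cloned, and the number of miR-23 and miR-27 reads that mapped to several places, move such ratios and were not tested.

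**Figure D3:**
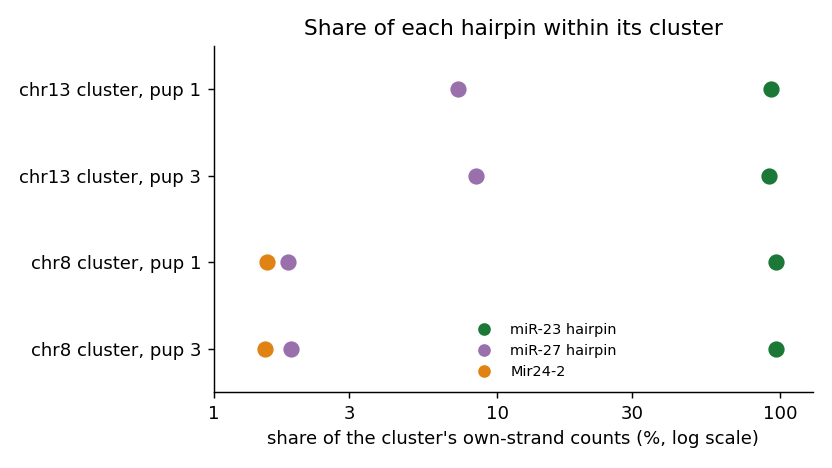
Share of the own-strand counts (percent, log scale) that each hairpin held within its cluster, by pup. The miR-27 hairpin held 7.28% and 8.41% of the chr13 cluster and 1.83% and 1.87% of the chr8 cluster, and Mir24-1, which has no row, is not drawn.

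Other microRNA clusters that exist as paralogs were set beside this pair as a description. Mir17, the lead hairpin of the miR-17-92 cluster, and its 5 neighbours had 1.78 times the counts of the Mir106b, Mir93 and Mir25 cluster in pup 1 and 1.76 times in pup 3. The miR-181 pair stood at 3.13 and 3.93 (Mir181a-1 and Mir181b-1 over Mir181a-2 and Mir181b-2), and the miR-29 pair at 1.21 and 1.34 (Mir29a and Mir29b-1 over Mir29b-2 and Mir29c). The miR-15/16 pair lay the other way, with 0.301 and 0.333 times as many counts for Mir15b and Mir16-2 as for Mir15a and Mir16-1. A ratio near 1.8 between clusters was thus within the range of these 4 duplicates. That range depends on which cluster is put first, so it does not show how usual such a ratio is.

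Unequal paralog ratios within a duplicated cluster were also seen elsewhere. Mir15b had 0.378 times the counts of Mir15a in pup 1 and 0.428 times in pup 3, while Mir16-2 had 0.197 and 0.207 times those of Mir16-1. Mir181a-1 had 8.05 times the counts of Mir181a-2 in pup 1 and 21.5 times in pup 3, while Mir181b-1 had only 0.0101 and 0.00813 times those of Mir181b-2. The arms miR-16-5p and miR-181a-5p are each the same from both of their loci, so the loss of reads with several places bears on these ratios too. Arms of the miR-181b and miR-29b hairpins were not compared here, so their ratios may be subject to the same loss. Mir181b-1 itself had only 19 counts in pup 1 and 22 in pup 3.

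**Figure D4:**
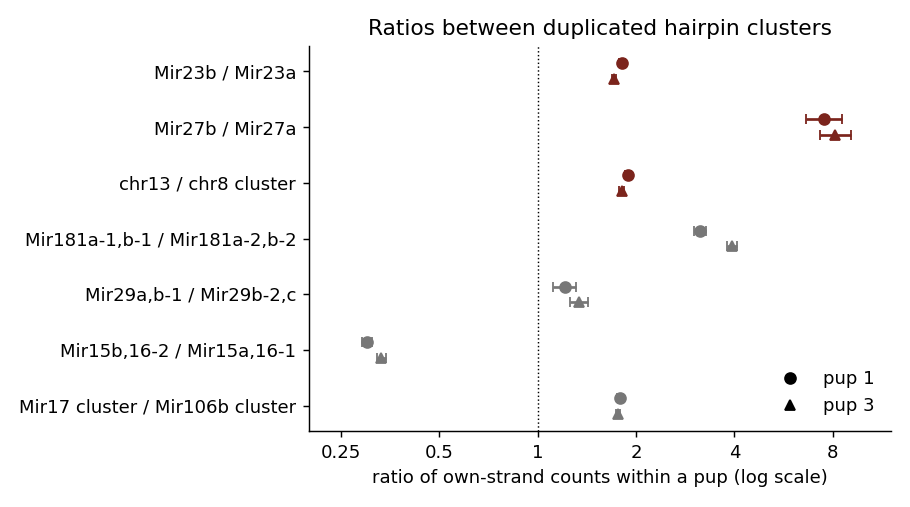
Ratio of own-strand counts between duplicated hairpins or clusters within pup 1 (circles) and pup 3 (triangles), on a log scale, with exact 95% counting intervals. The dotted line marks equal counts. Mir27b over Mir27a, at 7.51 and 8.14, lies right of Mir23b over Mir23a, at 1.81 and 1.71.

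Seeds tie the members to other microRNAs. No mature entry outside the clusters had the seed of miR-27-3p or of miR-23a-3p. The miR-24-3p seed was shared by miR-5124b, miR-6369, miR-6410 and miR-6413, whose hairpins had 0 counts in both pups. The seed of miR-128-3p, a neuronal microRNA, is that of miR-27-3p moved on by 1 base.
miR-128-3p (chromosomes 1 and 9): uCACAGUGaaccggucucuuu

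The hairpins Mir128-1 and Mir128-2 share the whole 3p arm, so their counts, like those of Mir24-2, do not measure that arm. As hairpin counts, Mir128-1 held 7698 ± 263 CPM and Mir128-2 2498 ± 110 CPM. Mir27b and Mir27a together had 0.0958 times the counts of these hairpins in pup 1 and 0.111 times in pup 3, which is no ratio of miR-27-3p to miR-128-3p.

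No member differed by 1.5-fold between the pups. After TMM scaling, the log2 ratio of pup 3 over pup 1 was -0.12 for Mir23b and 0.10 for Mir27b. It was -0.04 for Mir23a, -0.01 for Mir27a and -0.07 for Mir24-2. The count past 1.5-fold was 0 of 5, against 19 of the 286 genes that averaged 50 counts or more, or 6.64%. The median absolute log2 ratio was 0.07 for the members and 0.15 for all 286 genes, a comparison of libraries with no replicate check.

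Mir23b and Mir27b moved in opposite directions between the pups. Neither difference was large for these libraries. Of the 286 genes, 39.5% had a smaller absolute log2 ratio than Mir23b and 34.3% a smaller one than Mir27b. Counts of Mir27b were 1.08 times as high in pup 3 as in pup 1 (1.02 to 1.14 by counting error), while those of Mir23b were 0.919 times as high (0.904 to 0.934). The intervals for Mir27a, at 0.848 to 1.16, and for Mir24-2, at 0.800 to 1.13, took in no difference. Mir23a, at 0.973 times (0.952 to 0.994), was below 1 after TMM scaling but above it by plain CPM, and the log2 ratio of Mir27a changed sign in the same way.

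**Figure D5:**
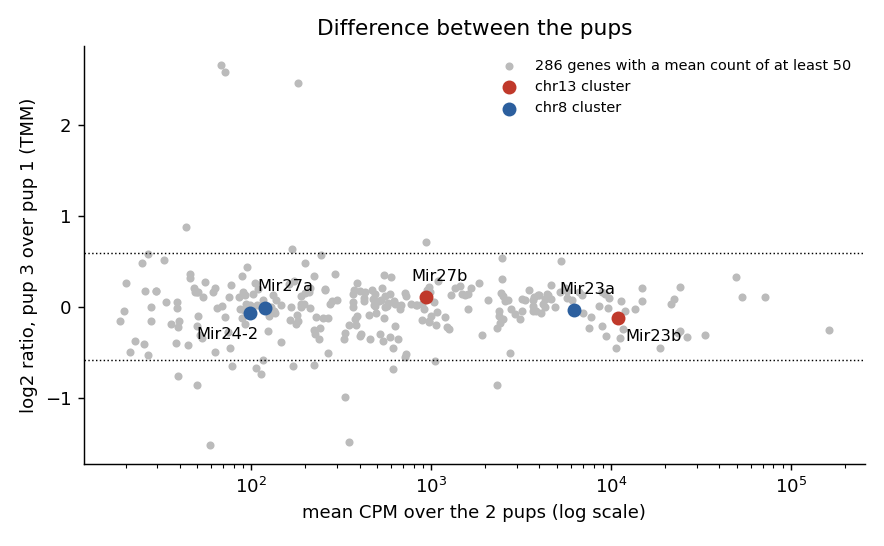
Log2 ratio of pup 3 over pup 1 after TMM scaling against mean CPM (log scale) for the 286 genes averaging 50 counts or more, with chr13 members in red and chr8 members in blue. Dotted lines mark 1.5-fold, and the 5 members lie between -0.12 and 0.10.

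Genes of the closest mean CPM placed the members among other hairpins, the likeness being of level over 2 pups only. Mir23b lay between Mir369 of the Dlk1-Dio3 cluster at 11241 ± 1605 CPM and Mir342 at 10604 ± 2078 CPM, and Mir23a between Mir598 at 6398 ± 19.0 CPM and Mir381 at 6080 ± 372 CPM. Mir27b lay between Mir7-1 at 939 ± 343 CPM and Mir340 at 912 ± 9.96 CPM. Mir27a lay between Mir1306 at 123 ± 13.2 CPM and Mir192 at 117 ± 30.2 CPM, and Mir24-2 between Mir302a at 98.7 ± 3.40 CPM and Mir96 at 94.8 ± 22.1 CPM. Of these 10 neighbours, Mir598 lay above its member in both pups, and the other 9 changed place with theirs between the pups.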

How the data were processed

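RNA of under 30 bases was sequenced from the midbrains of 2 pups. The deposited descriptions name mm10 and GENCODE M4 as assembly and annotation. For the aligner and counter, the name is not given in the sources used here. The values used are the deposited raw counts per gene on the gene's own strand. The 4 rows that name no gene held 57.2% of reads in pup 1 and 56.7% in pup 3 and stayed out of totals.

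Identifiers were matched without version to GENCODE M21, which named 1894 of 1973 genes. CPM, within-pup ratios and exact intervals were computed with SciPy 1.17.1. A microRNA read spans a mature arm, so counts were not divided by hairpin length. Pup 3 over pup 1 used TMM scaling (edgeR 4.0.16) with a prior count of 0.5, and DESeq2 1.42.0 size factors were an alternative. A chi-square of 33249 on 285 degrees of freedom showed that the tables differ by more than counting noise, which does not show that they come from separate animals. They were kept as 2 samples because the labels call them biological replicates. The design has 1 group, so no condition was tested. Named besides the members are overlapping hairpins, the gene next above and below each member in mean CPM, Mir128-1 and Mir128-2, and 4 other duplicated clusters. Members and lists were chosen with earlier results of these data known.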

Additional observations from a re-analysis of the deposited data

Results flagged for a closer look

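Counts on the strand opposite to the Mir3074-1 row, which lies across Mir24-1, came to 33 in pup 1 and 40 in pup 3. They stand in a column outside the main measurement and exceed the 3 counts that a count of 0 allows. Their origin was not tested.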

How the results depend on the processing

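Direction held under every alternative run for the miR-23 pair, the miR-27 pair, the cluster sums and the miR-23 to miR-27 ratio. Either-strand counts could not change these ratios, since the members had 0 counts on the opposite strand. Leaving out a pup only restates the ratio of the other pup given above. The log2 ratio of Mir23b over Mir23a ran from 0.78 to 0.86 with each pup left out, that of Mir27b over Mir27a from 2.91 to 3.03, that of the clusters from 0.85 to 0.92, and the difference in the miR-23 to miR-27 ratio from -2.25 to -2.05. Division by hairpin length, chosen after seeing the data, gave 3.22 for Mir27b over Mir27a in place of 2.97. Equal weight for each pair gave 1.89 for the clusters in place of 0.89. Adding the Mir3074-1 counts of both strands to the chromosome 13 sum, also chosen after seeing the data, gave 0.90. Leaving out Mir24-2 gave 0.91. Genes past 1.5-fold between the pups numbered 45 of 372 with a mean count of at least 10, 259 of 697 with no minimum beyond 1 count, and 5 of 286 past 2-fold. The members' own ratios reached at most 0.15 in size on the log2 scale under all 4 alternatives to them. Level alternatives moved by less than 1 SD in 30 cases and by more in 19, in each of which the total had changed and the members' counts had not. The cases under 1 SD include every run with a pup left out, where having only 2 pups makes that outcome certain. With the total over all reads, levels came to 4727 CPM for Mir23b and 51.3 CPM for Mir27a. The planned ratio of Mir24-1 over Mir24-2 was not run, since Mir24-1 has no row. The levels of Mir24-2 and Mir27a rest on 232 to 386 counts a pup, which limits their order. No replicate block was fitted, since the series has a single group and each ratio between clusters is already taken within a pup.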
